A study of Saccharomyces cerevisiae with 3 samples.

Results

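The last 250 probe sets on a tiling array of chromosome VI of budding yeast (Saccharomyces cerevisiae), c6Mbo1001 to c6Mbo1250, were examined in 3 samples of a chromatin endogenous cleavage (ChEC) study. They were taken by the number in the identifier alone, which was read as order along the chromosome and leaves 1000 probe sets for comparison. The rule used no measured value. In ChEC a protein is fused to micrococcal nuclease (MN), a nuclease that needs calcium, so that the fusion cuts DNA close to where the protein sits in the cell. The samples were uncleaved DNA, DNA cut in vivo by H2b-MN for 1 min on ice, and DNA cut in vivo by Nup2-MN for 5 min at 30 °C. All 3 came from yeast in raffinose medium (2%) that received galactose (2%) for 1 h in logarithmic growth. The fusion, the time and the temperature therefore differed together between the cleaved samples. The strains, the promoters of the fusions and the strain behind the uncleaved DNA were not given in the sources used here.

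Nup2 is a nucleoporin of the nuclear basket, the side of the nuclear pore complex that faces the chromatin, and part of it moves on and off the pore. Active genes, among them genes switched on by galactose, are known to associate with the nuclear pore in yeast. H2b is a core histone that forms nucleosomes with H2a, H3 and H4, so its fusion reads chromatin in general and serves as a reference for a fusion with more limited contacts. The study asked where Nup2 contacts this chromosome.

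Each value was the authors' mean log2 array signal over 3 independent experiments. The deposited README also names SDs and array files of the single experiments, and these were not analysed here. With the means alone, 1 value per group and probe set, no difference below carries a test or a p-value. All SDs are over probe sets. Differences are log2 differences, so that 1 is 2-fold, and 2-fold is the threshold used for counts. The 3 comparisons share columns in pairs, so values set side by side from different comparisons are not separate measurements. The sources used here did not give the genes, coordinates or sequences behind the identifiers, or whether cutting raises or lowers the signal. The probe sets are therefore described by number, as higher or lower.

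The level of signal in the 250 probe sets was close to that of the other 1000. Uncleaved DNA had a median log2 signal of 7.44 (range 4.74 to 11.19), against 7.60 in the other 1000. H2b-MN had a median of 7.33, against 7.60, and Nup2-MN a median of 7.57, against 7.39. Nup2-MN was thus the column with the highest median in the 250 and the one with the lowest median elsewhere. The dimmest probe set was c6Mbo1088, at 4.74 (uncleaved), 4.89 (H2b-MN) and 4.76 (Nup2-MN). The brightest was the last, c6Mbo1250, at 11.19, 10.36 and 10.94. Across the 250 probe sets, which share arrays and probe sequence and are not replicates, Pearson's r was 0.907 between uncleaved DNA and H2b-MN, 0.890 between uncleaved DNA and Nup2-MN, and 0.914 between the cleaved samples.

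At least 1 of the 3 comparisons passed 2-fold in 52 of the 250 probe sets (20.8%), against 15.0% over the chromosome and 10.8% to 16.0% in the 4 other blocks of 250. The excess lay mainly in probe sets with more signal in Nup2-MN than in H2b-MN.

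**Figure D1:**
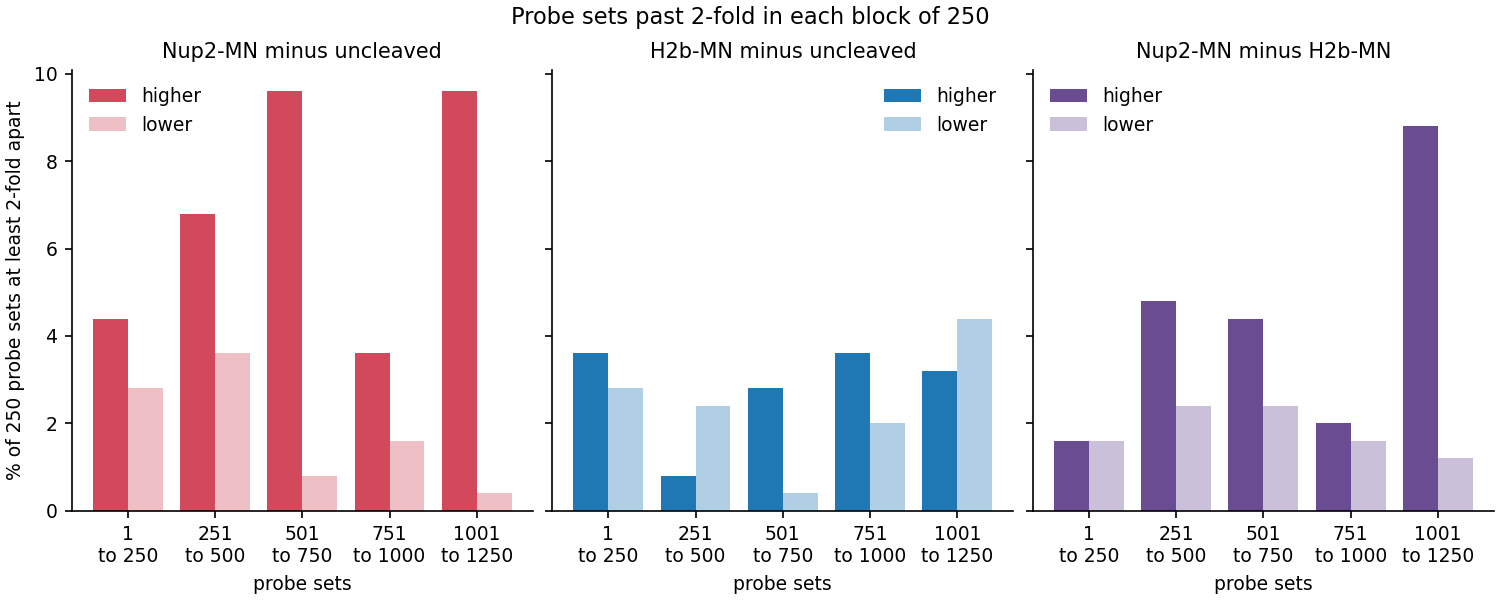
Percentage of probe sets at least 2-fold higher (dark bars) or lower (pale bars) in each block of 250 probe sets, for the 3 comparisons. In the right panel 8.80% of probe sets c6Mbo1001 to c6Mbo1250 are higher in Nup2-MN than in H2b-MN, against 1.60% to 4.80% in the other blocks. In the left panel the bars of c6Mbo0501 to c6Mbo0750 and of c6Mbo1001 to c6Mbo1250 both stand at 9.60%.

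Nup2-MN signal was past 2-fold above uncleaved signal mainly in 3 broad stretches of the 250 probe sets, picked after the values were seen. Past 2-fold were 24 higher probe sets (9.60%, against 6.80% over the chromosome) and 1 lower probe set (0.40%, against 1.84%). The median difference was 0.02, against -0.15 over the chromosome and -0.19 over the other 1000. The block is not alone in this, since c6Mbo0501 to c6Mbo0750 also held 24 higher probe sets, with a median of -0.0024. Of the 24, 4 lay in c6Mbo1011 to c6Mbo1040, 7 in c6Mbo1161 to c6Mbo1190 and 8 in c6Mbo1205 to c6Mbo1250. These stretches hold 30, 30 and 46 probe sets. The other 5 were c6Mbo1073, c6Mbo1143, c6Mbo1144, c6Mbo1153 and c6Mbo1154. The last 4 of these also lay close together, 2 in c6Mbo1141 to c6Mbo1150 and 2 in c6Mbo1151 to c6Mbo1160. Without c6Mbo1205 to c6Mbo1250 the median of the remaining 204 was -0.11, with 16 higher (7.84%). Over the chromosome without them the median was -0.19 and the share 6.40%, so the 204 lay close to the background. With each column centred on its median, 39 of the 250 were higher (15.6%, against 9.92% over the chromosome). The probe sets nearest to the threshold were c6Mbo1205 just inside (1.02) and c6Mbo1229 just outside (0.98).

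The 5 highest Nup2-MN differences were at c6Mbo1215, c6Mbo1248, c6Mbo1214, c6Mbo1165 and c6Mbo1015. Probe set c6Mbo1215 read 7.30 (uncleaved), 8.60 (H2b-MN) and 9.58 (Nup2-MN), a 4.85-fold difference between Nup2-MN and uncleaved DNA. Its neighbour c6Mbo1214 read 7.20, 8.38 and 9.12 in the same order (3.77-fold). In both, H2b-MN stood between the other samples, and it was itself more than 2-fold above uncleaved DNA. Probe set c6Mbo1248 read 5.45, 5.90 and 7.39 (3.85-fold), with H2b-MN 0.45 above uncleaved DNA. Probe set c6Mbo1165 read 7.88, 8.84 and 9.69 (3.52-fold), and c6Mbo1015 read 6.67, 7.64 and 8.34 (3.18-fold). The single probe set more than 2-fold lower was c6Mbo1156, at 9.26 (uncleaved), 8.27 (H2b-MN) and 8.03 (Nup2-MN). The next lowest Nup2-MN differences were -0.92 at c6Mbo1049, -0.89 at c6Mbo1135, -0.86 at c6Mbo1076 and -0.85 at c6Mbo1047.

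**Figure D2:**
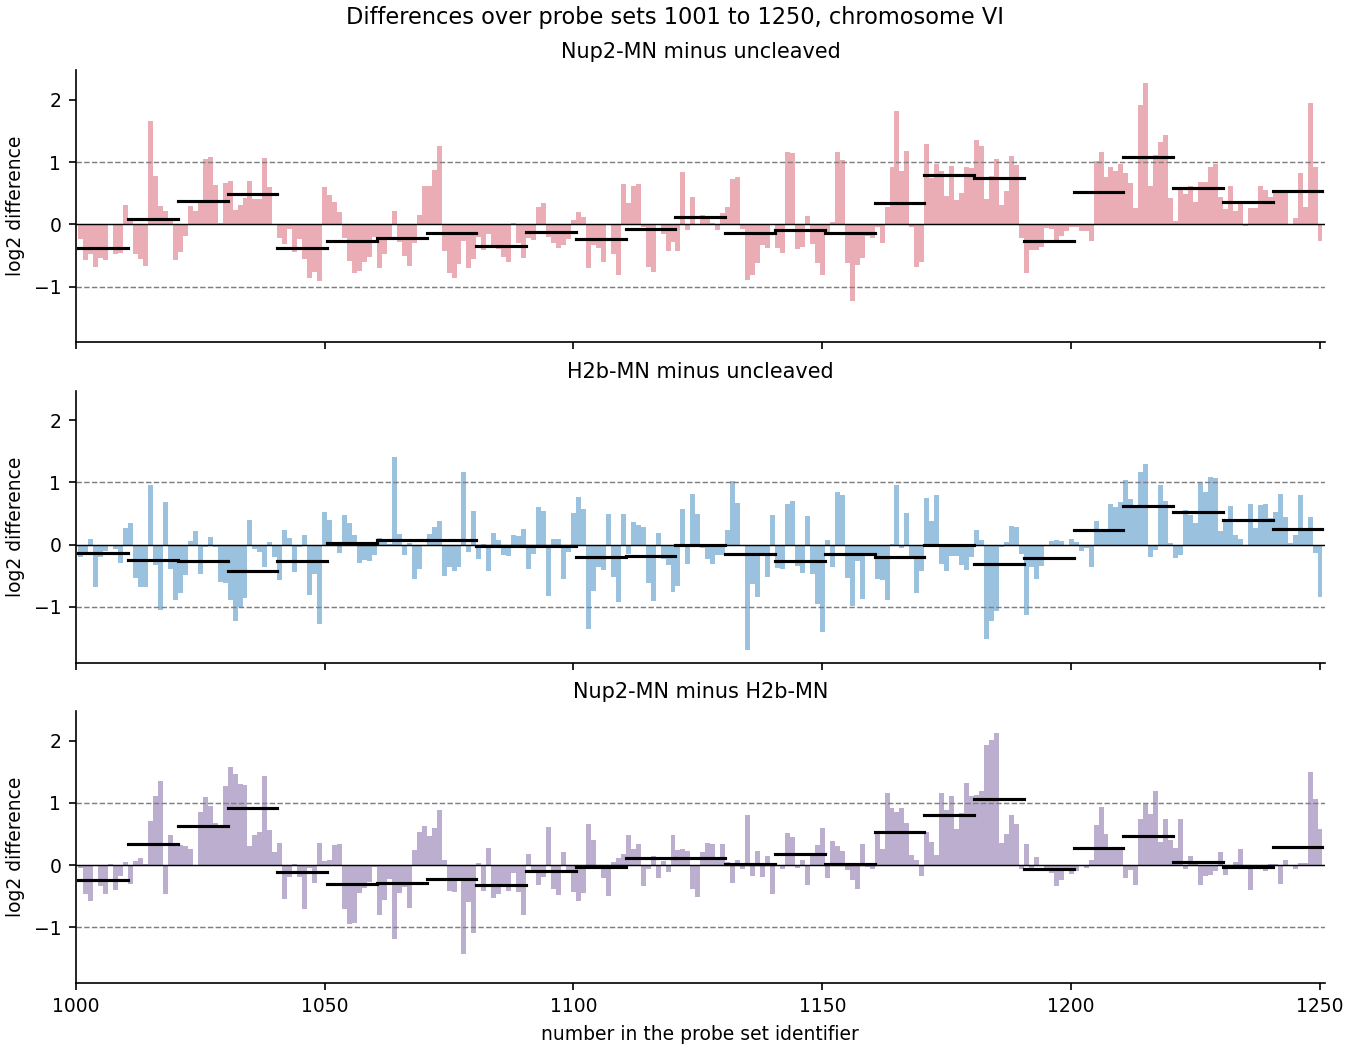
Log2 difference at each of probe sets c6Mbo1001 to c6Mbo1250 (coloured bars) with means over windows of 10 (black lines), for the 3 comparisons. Dashed lines mark 2-fold. The window means of Nup2-MN minus uncleaved reach 1.09 in c6Mbo1211 to c6Mbo1220, and those of Nup2-MN minus H2b-MN reach 1.06 in c6Mbo1181 to c6Mbo1190.

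H2b-MN differed from uncleaved DNA in both directions. Higher by 2-fold or more were 8 probe sets (3.20%, against 2.80% over the chromosome), a share close to the background. Lower by as much were 11 (4.40%, against 2.40%), and in the other blocks of 250 this share was 0.40% to 2.80%. The median was -0.04, against -0.04 over the chromosome. The 11 lower probe sets all lay in c6Mbo1001 to c6Mbo1204, while 5 of the 8 higher ones lay in c6Mbo1205 to c6Mbo1250. Leaving out c6Mbo1205 to c6Mbo1250 brought the higher count to 3 (1.47%) and the median to -0.15. Over the chromosome without them the share was 2.49% and the median -0.05. Closest to the threshold were c6Mbo1132 (1.02) inside and c6Mbo1226 (0.99) outside on the high side, and c6Mbo1033 (-1.002) inside and c6Mbo1156 (-0.99) outside on the low side.

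The lowest H2b-MN differences were c6Mbo1135, c6Mbo1183, c6Mbo1150, c6Mbo1103 and c6Mbo1049. Probe set c6Mbo1135 read 7.62 (uncleaved), 5.93 (H2b-MN) and 6.73 (Nup2-MN), so that H2b-MN was 3.24-fold below uncleaved DNA and Nup2-MN lay between. Probe set c6Mbo1150 read 6.79, 5.38 and 5.97, and c6Mbo1103 read 7.23, 5.87 and 6.53, with the samples in the same order. Probe set c6Mbo1049 read 8.32, 7.05 and 7.40. At c6Mbo1183 the order was different: uncleaved DNA read 9.13, H2b-MN 7.61 and Nup2-MN 9.54. The highest H2b-MN differences included 2 probe sets at which Nup2-MN stayed near uncleaved DNA. Probe set c6Mbo1064 read 4.88, 6.28 and 5.10, and c6Mbo1078 read 6.12, 7.29 and 5.86. Their uncleaved signal was low, and each stood alone, with H2b-MN differences of 0.01 and 0.17 on either side of c6Mbo1064 and -0.37 and -0.11 on either side of c6Mbo1078. The others were c6Mbo1215 (1.30), c6Mbo1214 (1.18) and c6Mbo1228 (1.09).

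Nup2-MN exceeded H2b-MN by 2-fold or more in 22 (8.80%, against 4.32% over the chromosome) and was lower by as much in 3 (1.20%, against 1.84%). These 22 are 40.7% of the 54 such probe sets of the chromosome, in a block that holds 20.0% of all probe sets. The median difference was 0.07, against -0.07 over the chromosome and -0.10 over the other 1000, and 145 of 250 values were above 0 (58.0%), against 40.0% of the other 1000. This did not rest on the end of the chromosome. Without c6Mbo1205 to c6Mbo1250, 19 of 204 were higher (9.31%) and the median was 0.08. Over the chromosome without them the share was 4.24% and the median -0.08. Of the 22, 9 lay in c6Mbo1011 to c6Mbo1040 and 10 in c6Mbo1161 to c6Mbo1190. Over the 22, the median signals were 8.01 (uncleaved), 7.61 (H2b-MN) and 9.07 (Nup2-MN). Nup2-MN was above uncleaved DNA in all 22, by 0.23 to 1.94, and H2b-MN was below it in 19. The nearest outside the threshold was c6Mbo1215 (0.97), and the nearest inside c6Mbo1249 (1.07).

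Windows of 50 probe sets placed these differences along the chromosome. Of the 25 windows, the last, c6Mbo1201 to c6Mbo1250, had the highest mean for Nup2-MN minus uncleaved (0.62, SD 0.54) and for H2b-MN minus uncleaved (0.41, SD 0.44). The lowest H2b-MN mean, -0.27 (SD 0.49), also fell in the 250, in c6Mbo1001 to c6Mbo1050, followed by c6Mbo1151 to c6Mbo1200 (-0.18) and c6Mbo1101 to c6Mbo1150 (-0.16). Both extremes of the H2b-MN means over windows of 50 thus came from the last 5 windows. This depended on the window size. In shorter windows the highest H2b-MN mean was still in the 250 (0.63, against 0.50 elsewhere). The lowest was not (-0.43, against -0.53 elsewhere). The most extreme H2b-MN differences of single probe sets lay elsewhere too, at -1.73 and 2.07, against -1.69 and 1.40 in the 250. For Nup2-MN minus H2b-MN, c6Mbo1001 to c6Mbo1050 had a mean of 0.31 (SD 0.61) and c6Mbo1151 to c6Mbo1200 a mean of 0.47 (SD 0.62). The mean was 0.21 (SD 0.43) in c6Mbo1201 to c6Mbo1250 and -0.25 (SD 0.50) in c6Mbo1051 to c6Mbo1100. High Nup2-MN windows were not confined to the 250. The window c6Mbo0651 to c6Mbo0700 ranked 2 of 25 in both Nup2-MN comparisons. Its means were 0.45 (SD 0.63) against H2b-MN and 0.42 (SD 0.61) against uncleaved DNA.

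**Figure D3:**
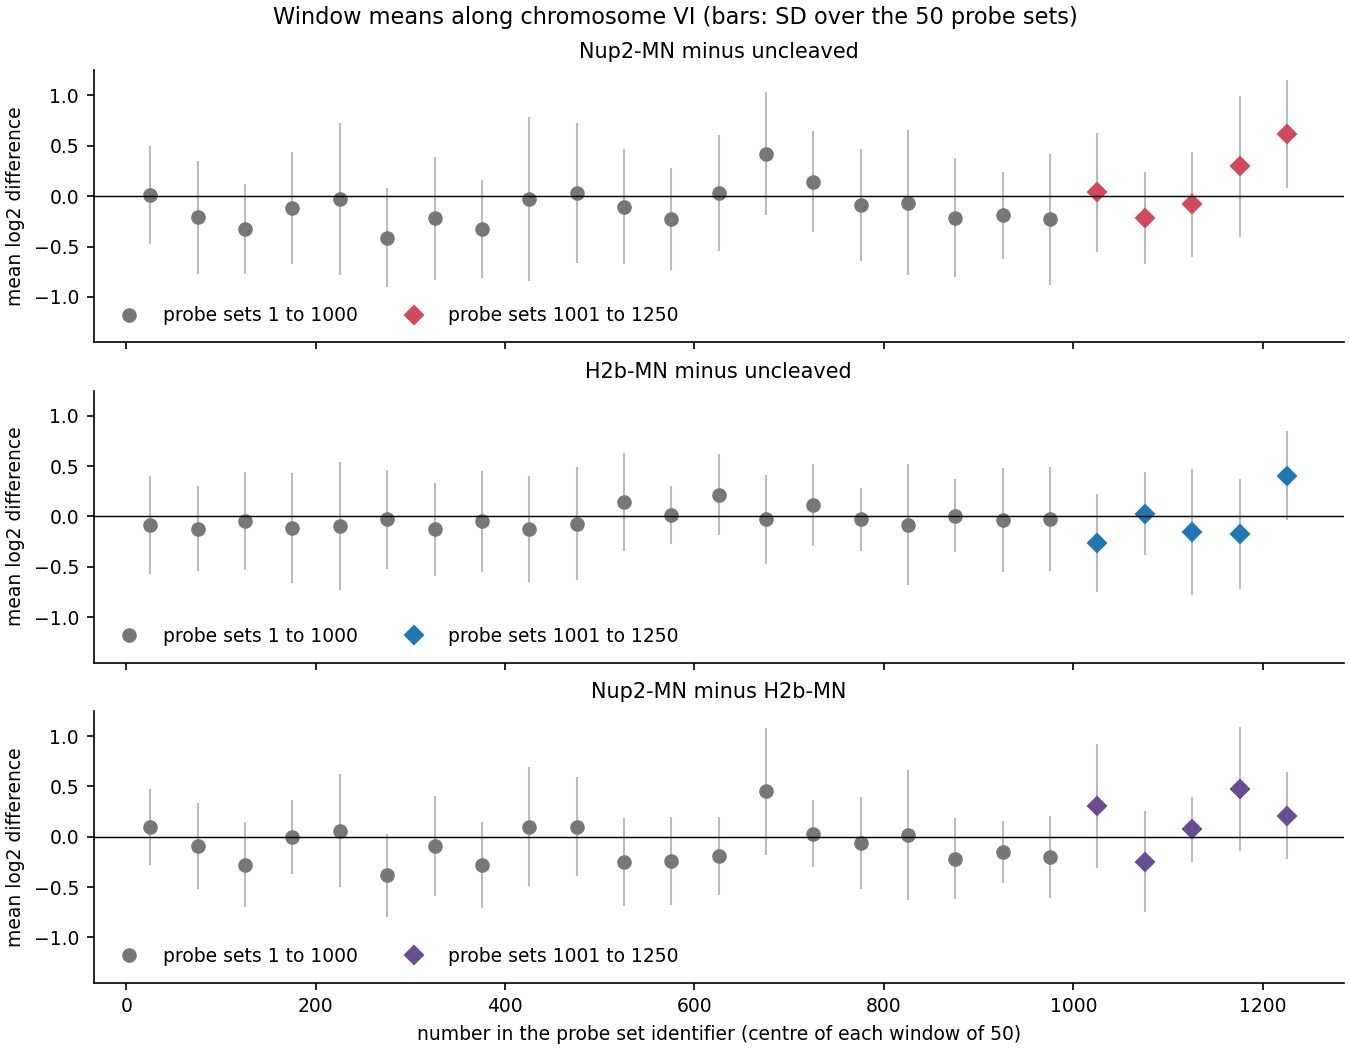
Mean log2 difference in windows of 50 probe sets along the whole chromosome (grey circles for the first 1000, coloured diamonds for c6Mbo1001 to c6Mbo1250), with bars of 1 SD over the 50 probe sets. The last diamond is the highest point in the upper panel (0.62) and in the middle panel (0.41).

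Read in the order of the identifiers, the 250 probe sets fell into stretches that were high or low in Nup2-MN. The limits of the stretches below are those of windows of 10 or of runs, and they were picked after the values were seen. Of the first 10 probe sets, c6Mbo1001 to c6Mbo1010, 9 were below uncleaved DNA in Nup2-MN (mean -0.37) and 8 in H2b-MN (mean -0.13). These means ranked 104 and 83 from the top among the 125 windows of 10, and windows elsewhere reached -0.78 and -0.53. Of the other 1000 probe sets, 38.1% (Nup2-MN) and 45.8% (H2b-MN) were above uncleaved DNA. The first of them, c6Mbo1001, was dim, at 5.09 (uncleaved), 4.89 (H2b-MN) and 4.85 (Nup2-MN).

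In c6Mbo1011 to c6Mbo1040 the samples separated, with uncleaved DNA in the middle. Mean differences from uncleaved DNA over the 30 probe sets were 0.31 (SD 0.55) for Nup2-MN, with 24 above 0, and -0.31 (SD 0.53) for H2b-MN, with 22 below 0. Nup2-MN exceeded H2b-MN in 27 of the 30. A sharp change came inside the stretch, after c6Mbo1012 to c6Mbo1014, where both cleaved samples were below uncleaved DNA. At c6Mbo1014 uncleaved DNA read 9.70, H2b-MN 9.03 and Nup2-MN 9.04, and at the next probe set, c6Mbo1015, the values were 6.67, 7.64 and 8.34. The Nup2-MN difference therefore moved from -0.66 to 1.67, the largest step between neighbours among the 250 (2.33, against 2.35 in the other 1000). The longest run past 2-fold between the cleaved samples here was of 5 bright neighbours, c6Mbo1030 to c6Mbo1034, while at c6Mbo1038 and c6Mbo1017 these samples were 1.43 and 1.35 apart. Probe set c6Mbo1030 read 8.54 (uncleaved), 7.93 (H2b-MN) and 9.20 (Nup2-MN). Probe set c6Mbo1031 read 9.64, 8.75 and 10.34, a 2.99-fold difference between the cleaved samples. Probe sets c6Mbo1032 (9.84, 8.61 and 10.07), c6Mbo1033 (9.60, 8.59 and 9.90) and c6Mbo1034 (9.54, 8.69 and 9.97) kept the same order. In these 3, H2b-MN was 0.85 to 1.23 below uncleaved DNA and Nup2-MN 0.23 to 0.43 above it, so that most of the gap between the cleaved samples lay on the H2b-MN side. At c6Mbo1026 and c6Mbo1027 it lay on the other side: H2b-MN was within 0.13 of uncleaved DNA, and Nup2-MN exceeded it by 1.05 and 1.08.

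In c6Mbo1041 to c6Mbo1110, 70 probe sets, Nup2-MN was mostly below uncleaved DNA (52 of 70, mean -0.24, SD 0.45), while H2b-MN was above it in 35 and below it in 35 (mean -0.04, SD 0.49). All 7 windows of 10 in this stretch had a Nup2-MN mean below 0, from -0.38 to -0.12. Values below uncleaved DNA were also the more common ones elsewhere. Of the other 1000, 38.1% were above it in Nup2-MN, with a mean of -0.11. Their windows of 10 had a median Nup2-MN mean of -0.08 and a lowest of -0.78. The 3 probe sets more than 2-fold lower in Nup2-MN than in H2b-MN were all here: c6Mbo1078 and c6Mbo1064, with the values given above, and c6Mbo1080, at 7.25 (uncleaved), 7.78 (H2b-MN) and 6.69 (Nup2-MN). The next were c6Mbo1055, at 7.27, 7.62 and 6.68, and c6Mbo1056, at 9.25, 9.40 and 8.46. They open the run c6Mbo1055 to c6Mbo1059, in which Nup2-MN was 0.53 to 0.78 below uncleaved DNA and H2b-MN had a mean of -0.06. A reverse run stood inside the stretch. In c6Mbo1070 to c6Mbo1073 Nup2-MN was above uncleaved DNA by 0.62 to 1.26 (mean 0.85) and H2b-MN by a mean of 0.21, at a mean uncleaved signal of 5.73. At c6Mbo1074 the Nup2-MN difference was back at -0.43.

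In c6Mbo1111 to c6Mbo1160, 50 probe sets, the cleaved samples differed little from each other (mean 0.09, SD 0.30, and 0 probe sets past 2-fold), although both differed from uncleaved DNA at single places. Pairs of neighbours were high in both: c6Mbo1143 read 7.58 (uncleaved), 8.23 (H2b-MN) and 8.75 (Nup2-MN), and c6Mbo1144 read 9.02, 9.71 and 10.16. Probe sets c6Mbo1153 (7.62, 8.47 and 8.78) and c6Mbo1154 (6.31, 7.12 and 7.34) had the same order. They were followed at once by a run below uncleaved DNA, c6Mbo1155 to c6Mbo1158, with means of -0.76 for Nup2-MN and -0.66 for H2b-MN. The run c6Mbo1135 to c6Mbo1137 was low in both too, with means of -0.77 and -1.05.

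In c6Mbo1161 to c6Mbo1190 Nup2-MN was high and H2b-MN was not. Over these 30 probe sets Nup2-MN had a mean of 0.63 above uncleaved DNA (SD 0.60, 24 above 0), H2b-MN a mean of -0.17 (SD 0.58, 11 above 0), and Nup2-MN exceeded H2b-MN in 28. The values fell into shorter pieces. In c6Mbo1164 to c6Mbo1167 Nup2-MN was 0.87 to 1.82 above uncleaved DNA (mean 1.20) and H2b-MN had a mean of 0.36. Probe sets c6Mbo1168 to c6Mbo1170 were below uncleaved DNA in both samples. In c6Mbo1171 to c6Mbo1173 both were above it, and c6Mbo1171 read 7.70 (uncleaved), 8.45 (H2b-MN) and 8.98 (Nup2-MN). From c6Mbo1174 to c6Mbo1180 H2b-MN was 0.17 to 0.42 below uncleaved DNA while Nup2-MN was 0.40 to 0.93 above it.

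The cleaved samples were 2-fold or more apart at each of the 7 probe sets c6Mbo1179 to c6Mbo1185, the longest such run among the 250, against 4 among the other 1000. The uncleaved level told its members apart. At c6Mbo1181, which read 7.86 (uncleaved), 8.09 (H2b-MN) and 9.22 (Nup2-MN), and at c6Mbo1182, which read 8.67, 8.74 and 9.93, H2b-MN was at the uncleaved level. At the next 3 it lay below: c6Mbo1183 is given above, c6Mbo1184 read 8.17, 6.94 and 8.94, and c6Mbo1185 read 7.83, 6.76 and 8.88. Over these 3 the mean difference from uncleaved DNA was -1.27 (SD 0.23) for H2b-MN and 0.74 (SD 0.33) for Nup2-MN, and the cleaved samples were 3.80-fold to 4.35-fold apart. At c6Mbo1186, with 8.62, 8.58 and 8.93, the gap had closed to 0.35. From c6Mbo1187 to c6Mbo1189 Nup2-MN was again above uncleaved DNA, by 0.54 to 1.10, with H2b-MN 0.04 to 0.30 above it, and at c6Mbo1190 it was not (-0.22).

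**Figure D4:**
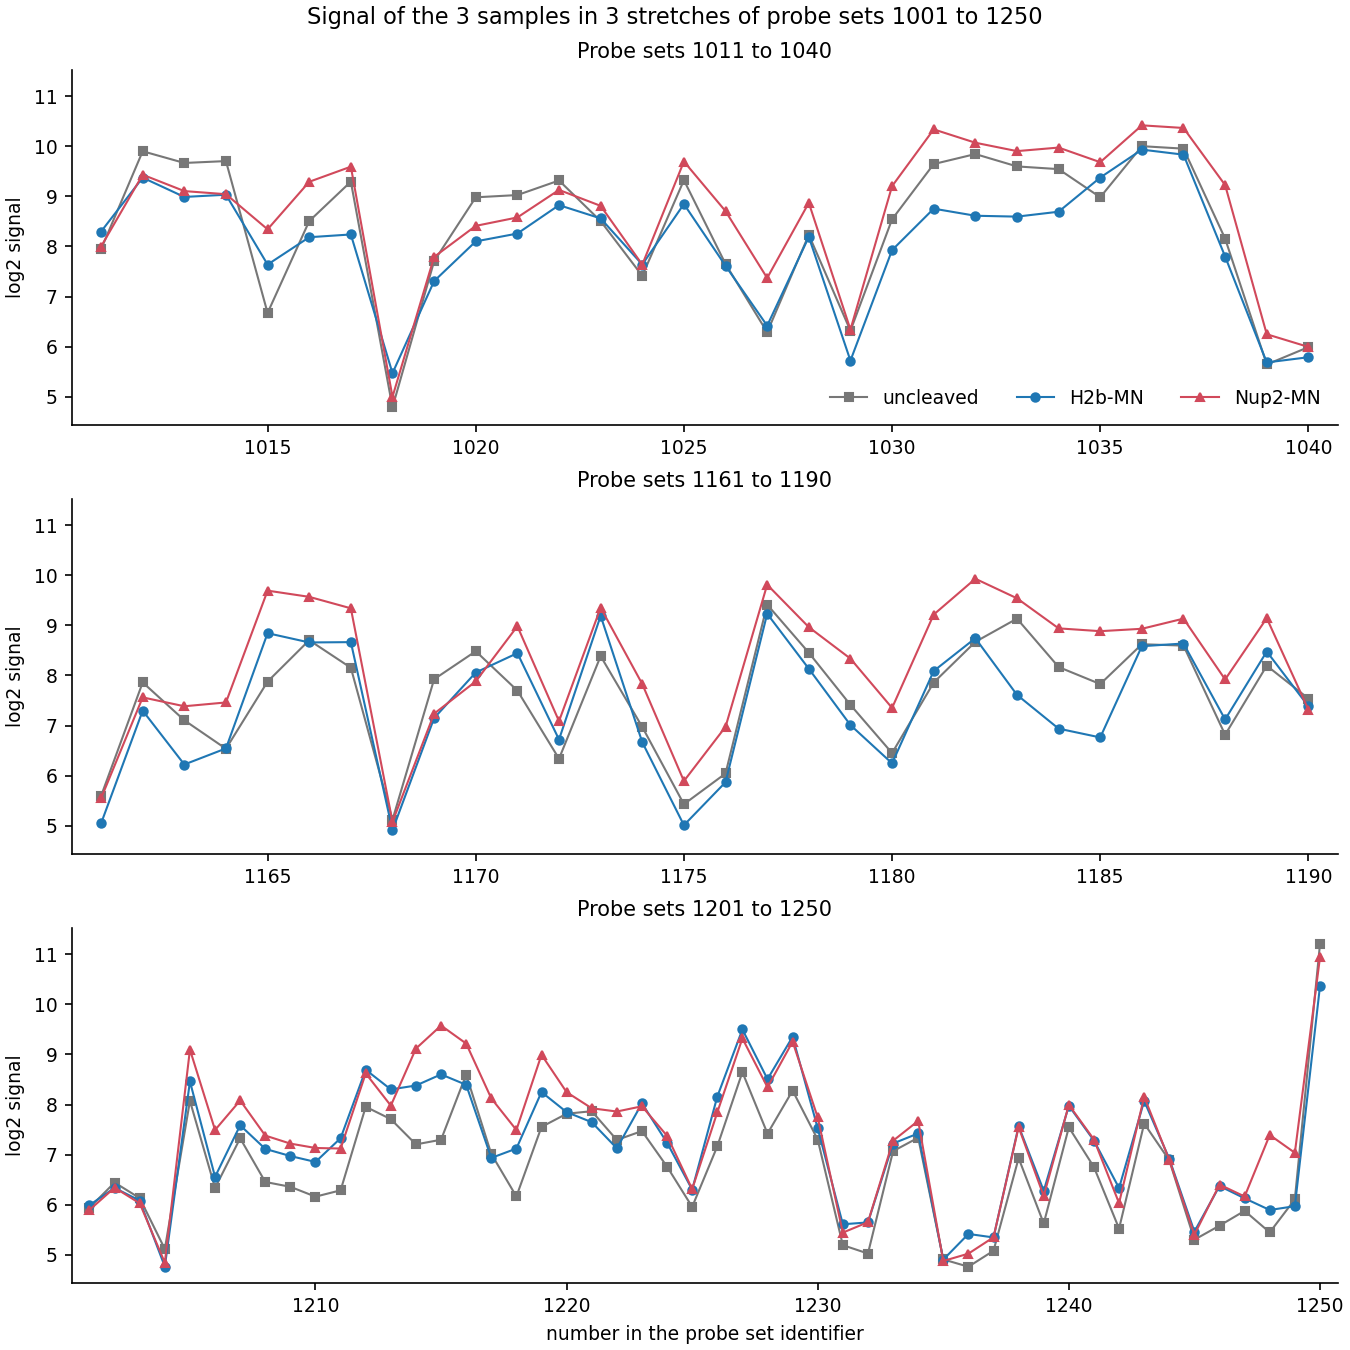
Log2 signal of uncleaved DNA (grey squares), H2b-MN (blue circles) and Nup2-MN (red triangles) at each probe set of c6Mbo1011 to c6Mbo1040, c6Mbo1161 to c6Mbo1190 and c6Mbo1201 to c6Mbo1250. At c6Mbo1031 to c6Mbo1034 and at c6Mbo1183 to c6Mbo1185 the blue points lie below the grey ones and the red ones above, and over c6Mbo1223 to c6Mbo1247 red and blue lie together, mostly above grey.

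The 10 probe sets c6Mbo1191 to c6Mbo1200 were all below uncleaved DNA in Nup2-MN, by 0.05 to 0.78 (mean -0.27), and c6Mbo1201 to c6Mbo1204 were too, by 0.04 to 0.27. H2b-MN was close to Nup2-MN there, with a mean of -0.21 over c6Mbo1191 to c6Mbo1200. These means ranked 91 (Nup2-MN) and 105 (H2b-MN) from the top among the 125 windows of 10. At c6Mbo1205 Nup2-MN was above uncleaved DNA, at 8.07 (uncleaved), 8.46 (H2b-MN) and 9.10 (Nup2-MN), and it stayed above through c6Mbo1234.

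Beyond c6Mbo1205 the balance of the cleaved samples changed from one probe set to the next. At c6Mbo1206, which read 6.33, 6.56 and 7.49, Nup2-MN was nearly alone above uncleaved DNA. At c6Mbo1211, which read 6.29, 7.33 and 7.12, and at c6Mbo1212, which read 7.96, 8.69 and 8.62, H2b-MN was as high or higher. In c6Mbo1214 to c6Mbo1219 Nup2-MN had a mean of 1.45 above uncleaved DNA, the highest mean of its runs in the 250, and H2b-MN a mean of 0.64. Within that run H2b-MN was below uncleaved DNA at c6Mbo1216 (-0.20) and c6Mbo1217 (-0.08), where Nup2-MN was 0.62 and 1.11 above. The run ended at c6Mbo1219, with 7.55, 8.25 and 8.99. In c6Mbo1226 to c6Mbo1229 H2b-MN had a mean of 1.00 and Nup2-MN of 0.81, and at c6Mbo1228 the samples read 7.42, 8.51 and 8.34.

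The windows of 10 show how the cleaved samples drew together toward the end. Mean Nup2-MN and H2b-MN differences from uncleaved DNA were 1.09 and 0.63 in c6Mbo1211 to c6Mbo1220, 0.58 and 0.52 in c6Mbo1221 to c6Mbo1230, and 0.35 and 0.39 in c6Mbo1231 to c6Mbo1240. In the last of these the signal was low, with an uncleaved median of 5.41. Over c6Mbo1221 to c6Mbo1247 the difference between the cleaved samples had a mean of -0.0011 (SD 0.22). The last 3 probe sets broke this: Nup2-MN was 2.82-fold above H2b-MN at c6Mbo1248, and on the log2 scale it was 1.07 above at c6Mbo1249 and 0.58 above at c6Mbo1250. At c6Mbo1250, the brightest, both were below uncleaved DNA, by 0.26 in Nup2-MN and by 0.84 in H2b-MN. The difference between these neighbours in uncleaved signal was large, from 6.11 at c6Mbo1249 to 11.19 at c6Mbo1250.

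The runs sum up this arrangement. Runs were counted where 3 or more neighbours differed by at least 0.5 in 1 direction. Nup2-MN above uncleaved DNA gave 10 runs with 44 of the 250 probe sets (17.6%, against 10.6% over the chromosome and 8.80% of the other 1000). Nup2-MN below uncleaved DNA gave 6 runs with 22 probe sets (8.80%, against 18.0% and 20.3%). For H2b-MN the higher runs were 3 with 15 probe sets (6.0%, against 3.04%), and the lower runs 5 with 18 (7.20%, against 5.76%). Nup2-MN above H2b-MN gave 7 runs with 40 probe sets (16.0%, against 7.92%), and Nup2-MN below H2b-MN gave 2 runs with 6 (2.40%, against 6.80%). Windows of 10 gave a like picture: the Nup2-MN mean was over 0.5 above uncleaved DNA in 6 of 25 windows (24.0%, against 8.00% over the chromosome) and over 0.5 above H2b-MN in 5 (20.0%, against 8.00%), and for H2b-MN over uncleaved DNA this was so in 2 (8.00%, against 2.40%).

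The correlation of a probe set with the next was 0.634 for Nup2-MN minus uncleaved (249 pairs), against 0.598 in the other 1000, and 0.380 for H2b-MN minus uncleaved, against 0.315 (0.235 without c6Mbo1205 to c6Mbo1250). For Nup2-MN minus H2b-MN it was 0.651, against 0.598, and at a distance of 3 it was 0.434, against 0.323. At a distance of 5 the correlation for Nup2-MN minus uncleaved was 0.207, against 0.014, and it was 0.069 without c6Mbo1205 to c6Mbo1250. In c6Mbo0501 to c6Mbo0750 this correlation was 0.151, against -0.082 to -0.033 in the remaining blocks. With the next probe set it was 0.651 in that block. For Nup2-MN minus H2b-MN that block had 0.652 with the next, 0.406 at a distance of 3 and 0.357 at 5. The last value was 0.319 here and 0.085 to 0.175 in the remaining blocks. Such likeness of neighbours was thus not particular to the last block. Neighbours share arrays and may share fragments, and these values are a description. The median step between neighbours was 0.27 in Nup2-MN minus uncleaved, against 0.26 in the other 1000, and 0.34 in H2b-MN minus uncleaved, against 0.26. The largest H2b-MN step was from c6Mbo1102 to c6Mbo1103, from 0.57 to -1.35, where Nup2-MN moved from 0.12 to -0.70.

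The Nup2-MN differences were also set out by signal level, which is not independent of them. Probe sets were split into 3 classes, dim, middle and bright, which hold equal numbers over the chromosome by mean signal over the 3 samples. That mean contains the Nup2-MN signal, so a high Nup2-MN value itself moves a probe set toward the bright class. By uncleaved signal alone, the 24 probe sets 2-fold or more higher in Nup2-MN had a median of 7.57, against 7.57 over the chromosome. In the bright class, 87 of the 250, the median of Nup2-MN minus uncleaved was 0.30 and 13 were more than 2-fold higher (14.9%), against a median of -0.09 and 7.88% in the bright class of the other 1000. In the dim class, 86 of the 250, the median was -0.06 and 3 were higher (3.49%), against -0.15 and 3.02% elsewhere, a share close to the background. In the middle class, 77 of the 250, it was 0.06 and 8 were higher (10.4%), against -0.38 and 7.37% elsewhere. The median was thus above that of the other 1000 in each class. For Nup2-MN minus H2b-MN the medians of the bright, middle and dim classes were 0.21, 0.08 and 0.0038, against -0.09, -0.21 and -0.03. The part of signal level in these differences was not tested.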

How the data were processed

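The deposited values are log2 signals of Affymetrix chromosome VI tiling arrays, read after hybridisation of biotin-labelled DNA. Per the deposited README, the authors grouped probes into sets of at most 16 that never overlap a site of the restriction enzyme MboI. They computed the log2 values by robust multi-array average in Bioconductor 1.5 and averaged 3 experiments per sample. That method includes quantile normalization across arrays, which acts against a shift shared by most probes of an array. The deposited columns still differed in their medians over the chromosome, at 7.57 (uncleaved), 7.58 (H2b-MN) and 7.42 (Nup2-MN).

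The 3 columns were mapped to samples by accession, with 1 value per group. Differences were subtractions of the deposited log2 values, unfiltered, over the whole chromosome. Replicate values were not analysed here, so no test was made, and the number of arrays limits the precision. Identifiers matching an entry of the RefSeq gene table numbered 0, and genome sequence was not used here.

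Named probe sets were the 5 highest and 5 lowest of each comparison, members of runs of 4 or more past 2-fold, the ends, most extreme members and limits of runs of 5 or more past 0.5, probe sets past 2-fold in both cleaved samples, the first, last, brightest and dimmest. Others were named after their values were seen. The members were set by the number in the identifier. They, the lists and the alternatives were chosen with earlier results of these data known. Alternatives were centring, quantile normalization, leaving out the dimmest 10%, removing a lowess trend (span 0.4), a 1.5-fold threshold, averaging 3 neighbours, and leaving out c6Mbo1205 to c6Mbo1250 or c6Mbo1241 to c6Mbo1250. The scripts were tested on simulated data. Python 3.11.15, numpy 2.4.6, pandas 2.3.3, statsmodels 0.14.6 and matplotlib 3.10.9 were used.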

Additional observations from a re-analysis of the deposited data

Results flagged for a closer look

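At probe set c6Mbo1185 the cleaved samples moved in opposite directions from uncleaved DNA, each past 2-fold: Nup2-MN lay 1.06 above it and H2b-MN -1.07 from it on the log2 scale. With 1 value per group the difference was not tested, and both values contain the same uncleaved signal.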

How the results depend on the processing

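No paired analysis was possible because the values used here are the authors' means of 3 experiments. The SDs and array files of those experiments were not analysed here, so no count is set against an error. A 1.5-fold threshold gave 66 higher (26.4%, against 17.0% over the chromosome) and 32 lower (12.8%, against 23.0%) in Nup2-MN against uncleaved DNA, 36 (14.4%, against 10.6%) and 36 (14.4%, against 10.7%) in H2b-MN against uncleaved DNA, and 49 (19.6%, against 10.9%) and 11 (4.40%, against 11.6%) in Nup2-MN against H2b-MN. In the same order, averaging 3 neighbours gave 15 (6.0%, against 2.96%) and 0 (against 0.64%), 2 (0.80%, against 0.32%) and 4 (1.6%, against 0.64%), and 14 (5.60%, against 2.32%) and 1 (0.40%, against 0.32%). These settings move counts by construction. Centring the columns, which moves the median of all probe sets for Nup2-MN minus uncleaved from -0.15 to -0.0048, took its higher count from 24 to 39 (15.6%, against 9.92% of all probe sets). Leaving out c6Mbo1205 to c6Mbo1250 brought the higher count for H2b-MN minus uncleaved from 8 to 3 (1.47%, against 2.49% of all probe sets kept). Of 48 recomputed counts, 34 stayed within 1.5 times. The median of Nup2-MN minus uncleaved was 0.17 with centring, 0.10 with quantile normalization, 0.056 without the dimmest 10%, 0.17 with the lowess trend removed, 0.10 with averaging, -0.11 without c6Mbo1205 to c6Mbo1250 and 0.0033 without c6Mbo1241 to c6Mbo1250. The median of H2b-MN minus uncleaved was -0.053 with centring, -0.0017 with quantile normalization, 0.0092 with the trend removed, -0.068 with averaging, -0.15 without c6Mbo1205 to c6Mbo1250 and -0.047 without c6Mbo1241 to c6Mbo1250. That of Nup2-MN minus H2b-MN was 0.23 with centring, 0.11 with quantile normalization, 0.083 without the dimmest 10%, 0.15 with the trend removed, 0.050 with averaging, and 0.076 without either end stretch. Apart from what centring removes, the cause was not tested. Of 223 recomputed values of named probe sets past 2-fold, 196 stayed past it and 0 changed sign. Averaging gave 22 of the 27 others. Part of this was fixed in advance. Leaving out the dimmest 10% does not alter a value that is kept, and centring shifts all values of a comparison by the same amount.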
